A study of Mus musculus with 6 samples.

Results

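The 32 genes described here make cholesterol and fatty acids, control that synthesis or move sterols across membranes. They were taken from a list of names, and each was read by its brightest probe set among those with exactly 1 gene symbol in the array's annotation. All 32 were found, among 19938 genes measured in all. They comprise 6 enzymes of the mevalonate pathway, 9 enzymes that lead from farnesyl diphosphate through squalene to cholesterol, 5 SREBP factors and regulators, 3 sterol transport genes and 9 genes of fatty acid synthesis and desaturation. Expression was measured on 6 arrays of mouse leukaemic B cells, 3 from Jup-/- (KO) and 3 from Jup+/+ (WT) donors, labelled as biological replicates on the C57BL/6 background. Jup encodes gamma-catenin, a junction protein related to beta-catenin. In both groups CD45.1+ mice were reconstituted with CD45.2+ fetal liver cells of either genotype, and at least 8 weeks later their bone marrow was transduced with a BCR-ABL1 IRES GFP retrovirus and given to lethally irradiated CD45.1+ recipients. At day 21, donor (CD45.2+) cells positive for GFP, B220 and BP-1 were sorted from bone marrow, so every sample carried the BCR-ABL1 kinase and came through an irradiated host. The labels do not say whether a sample came from 1 mouse or a pool, nor how the Jup allele was deleted.

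Cholesterol is built from acetyl-CoA through mevalonate, isoprenoids and squalene, and fatty acids from the same acetyl-CoA through malonyl-CoA. Both branches are switched on by the SREBP transcription factors, which SCAP carries from the endoplasmic reticulum to the Golgi when sterols are low and which the INSIG proteins hold back when sterols are high. SREBP-2, from Srebf2, acts mainly on the sterol genes and SREBP-1, from Srebf1, mainly on the fatty acid genes. Liver X receptors respond to excess sterol and raise exporters such as ABCA1 and ABCG1. Dividing B cells use both branches for new membrane.

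SREBP sites in promoters usually lie beside boxes bound by NF-Y, and the promoters of 5 members are shown because these genes stand at different places of the results: Hmgcs1 and Mvk for the sterol branch, Fasn for fatty acid synthesis, and Abca1 and Fads2 among the members that were higher in KO. The sequences are from RefSeq (GRCm38.p6) and give the 150 bases before a gene's start, 5′ to 3′ on the gene's strand. Capitals mark a match on either strand to the SREBP element TCACNCCAC, the NF-Y box CCAAT, the E-box CACGTG or the GC box GGGCGG, and neighbouring matches can touch.
Hmgcs1, chr13:119690201-119690350, plus strand: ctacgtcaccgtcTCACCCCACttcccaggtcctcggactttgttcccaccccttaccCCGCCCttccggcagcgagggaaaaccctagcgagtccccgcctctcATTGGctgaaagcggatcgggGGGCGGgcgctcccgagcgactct
Mvk, chr5:114444119-114444268, plus strand: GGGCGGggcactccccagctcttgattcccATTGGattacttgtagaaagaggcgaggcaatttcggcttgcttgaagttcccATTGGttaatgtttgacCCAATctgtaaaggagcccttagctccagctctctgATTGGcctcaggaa
Fasn, chr11:120824548-120824697, minus strand: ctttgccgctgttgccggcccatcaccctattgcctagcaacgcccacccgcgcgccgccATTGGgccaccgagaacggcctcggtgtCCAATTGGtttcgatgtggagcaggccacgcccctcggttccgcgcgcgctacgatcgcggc
Abca1, chr4:53159896-53160045, minus strand: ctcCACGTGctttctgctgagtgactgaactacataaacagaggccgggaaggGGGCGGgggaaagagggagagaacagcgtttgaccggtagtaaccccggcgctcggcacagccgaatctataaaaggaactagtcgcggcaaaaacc
Fads2, chr19:10101504-10101653, minus strand: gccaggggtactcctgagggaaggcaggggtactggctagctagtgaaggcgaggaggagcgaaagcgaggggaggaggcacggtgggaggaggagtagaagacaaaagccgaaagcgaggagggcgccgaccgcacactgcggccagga
In the stretch shown, Hmgcs1 had 1 SREBP element, 1 NF-Y box and 2 GC boxes, Mvk had 4 NF-Y boxes and 1 GC box, and Fasn had 3 NF-Y boxes. Abca1 had 1 E-box and 1 GC box, and Fads2 had no match. Windows of 300 bases, from 250 before to 50 after a start, were listed for 24 of the 32 members, 32 windows in all since some genes have several starts. An NF-Y box was in 62.5% of these windows, against 37.4% of all 32851 listed windows, and a GC box was in 75.0% against 35.7%. The E-box was in 18.8% against 7.15%. The SREBP element in this spelling was in 1 of the 32 windows, that of Hmgcs1, and in 1.24% of all windows. These are counts of letters in a fixed window and say nothing of binding.

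The arrays were alike in brightness, with medians of 7.53 to 7.61 on the log2 scale and pairwise correlations (Pearson's r over all probe sets) of 0.991 to 0.996. Jup was lower in every KO array, at 7.04 to 7.27 against 7.62 to 8.51 in WT, which gave -0.93 on the log2 scale (SE 0.20) and did not pass (limma adjusted p = 0.171). WT replicate 2 differed from the other arrays in sex-linked transcripts: Xist was at 6.20 there and at 13.03 to 13.38 elsewhere. The Y-linked Kdm5d was at 8.57 there and at 4.72 to 5.55 elsewhere. Sex thus differed within WT and not among the KO arrays. B-lineage markers were bright, with all 11 measured above the array median on every array and Cd79a at 13.60 to 13.76. Their KO mean was higher for 7 and lower for 4, and 0 were called. Enpep (BP-1) was lower without overlap (-0.23), Ptprc (B220) higher without overlap (0.19), and Rag1 gave the largest difference (0.50). Of 14 myeloid markers 12 had a higher KO mean, 10 of them without overlap, and Mpo, Elane and Ctsg were called higher, and the mean log2 level over that list was 8.53 to 8.66 in KO and 7.69 to 8.19 in WT. Of 7 erythroid markers 3 had a higher and 4 a lower KO mean. Car1 was called higher, at a level below the array median on every array, and Car2 gave -0.38. Of 10 T and NK cell markers 3 had a higher and 7 a lower KO mean, and 8 lay below the array median on every array. Nkg7 was higher by 0.49 and Klrb1c lower, at -0.79, both without overlap, and neither was called. Of 11 stromal, adipocyte and endothelial markers 8 also lay below the array median on every array. In these sorted populations fewer cells of a type and less RNA per cell cannot be told apart.

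Of the 32 members, 0 were called at a limma adjusted p under 0.05 in either direction. Among all 21789 probe sets 0.0505% were called higher in KO and 0.0688% lower, 0.119% together. At an unadjusted p under 0.05, 3 members were higher in KO, namely Abca1, Fads2 and Scd1, and 0 were lower, where 4.48% of all probe sets were higher and 4.73% lower. The same 3 members were the ones whose KO and WT arrays did not overlap, all higher in KO, against 5.94% of all probe sets higher and 8.08% lower without overlap. In all, 20 members had a higher KO mean and 12 a lower one, while 44.2% of all probe sets had a higher KO mean. The median log2 difference was 0.030 over the members and -0.016 over all probe sets, and the median size of a difference was 0.078 and 0.077. For 28 of the 32 members the 95% interval of the difference lay within 0.5 log2 units of 0 on both sides. The exceptions were Abca1, Fads2, Scd1 and Acss2.

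**Figure D1:**
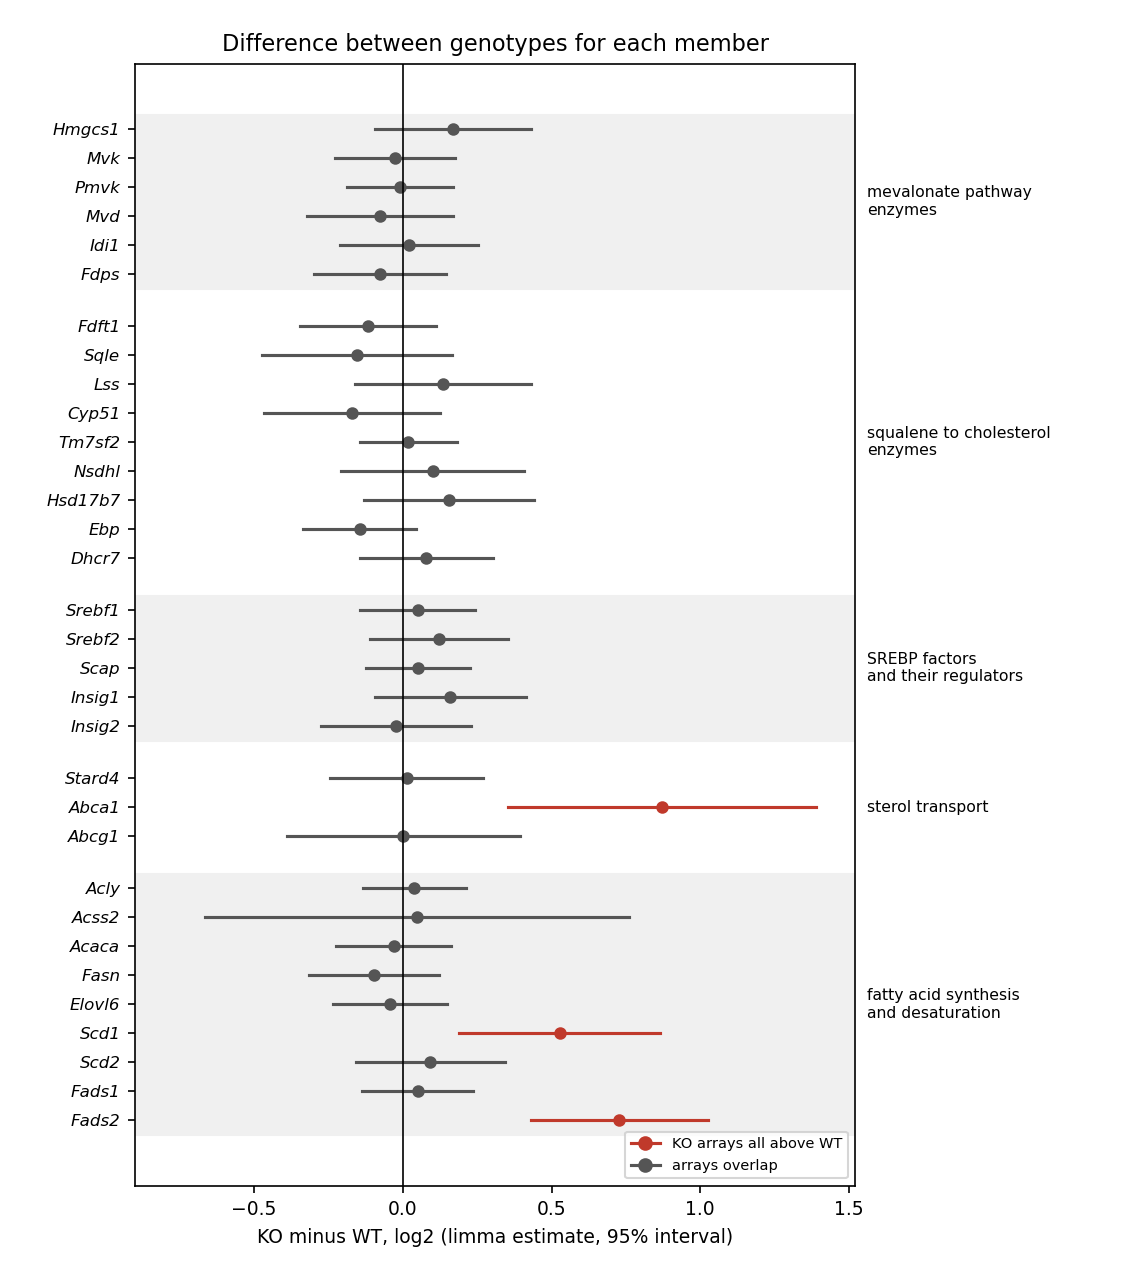
The log2 difference between KO and WT (x axis) of each of the 32 members (y axis, grouped by role), with points for the limma estimate and lines for its 95% interval. Abca1, Scd1 and Fads2, in red, are the members whose KO arrays all lay above the WT arrays, at 0.87, 0.53 and 0.73.

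The mevalonate enzymes gave small differences between the genotypes. Their log2 differences ran from -0.077 to 0.17, with a median of -0.019, and 2 of the 6 had a higher KO mean. Hmgcs1, the synthase that makes HMG-CoA, gave the highest value. It measured 9.28, 9.32 and 9.58 in KO and 9.42, 9.13 and 9.13 in WT, in the order of replicates 1, 2 and 3, as in all such lists below. WT replicate 1 thus lay among the KO arrays, and the difference of 0.17 (SE 0.11) did not pass (limma adjusted p = 0.740). The kinases Mvk and Pmvk gave -0.027 and -0.011. Mvd, the decarboxylase that yields isopentenyl diphosphate, gave -0.077, Idi1, its isomerase, 0.021, and Fdps, which joins these units into farnesyl diphosphate, -0.077. Over the group the 95% intervals reached from -0.32 to 0.43. A second probe set of Idi1 gave 0.0093.

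The later sterol enzymes went both ways, 5 with a higher and 4 with a lower KO mean, between -0.17 and 0.16 with a median of 0.019. Among those with lower means were Fdft1, which makes squalene (-0.12), Sqle, the epoxidase that follows it (-0.15), Cyp51, the lanosterol demethylase (-0.17), and Ebp, a sterol isomerase (-0.14). Fdft1 had another probe set, which gave -0.15. Hsd17b7, a sterol ketone reductase (0.16), Lss, which closes the ring of lanosterol (0.14), Nsdhl, a dehydrogenase of the demethylation steps (0.10), Dhcr7, the enzyme of the last step (0.080), and Tm7sf2, a sterol reductase (0.019), had higher means. The smallest limma adjusted p among the 15 mevalonate and sterol enzymes was 0.672, for Ebp, and their intervals reached from -0.47 to 0.44. Tm7sf2 was the only member below the array median on every array.

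Within each genotype, most sterol enzymes were high or low in the same arrays. Sqle measured 9.42, 9.11 and 9.72 in KO and 9.59, 9.55 and 9.56 in WT. Cyp51 measured 8.76, 8.72 and 9.20 in KO and 9.13, 9.01 and 9.06 in WT. In both genes KO replicate 3 was above every WT array, whereas KO replicates 1 and 2 were below all of them. Of the 15 enzymes, 13 were highest among the KO arrays in replicate 3 and 9 were lowest in replicate 2, and 12 were highest among the WT arrays in replicate 1. As the mean deviation from each gene's level over all 6 arrays, the 15 enzymes stood at 0.108 in KO replicate 3 and 0.114 in WT replicate 1. KO replicate 2 was at -0.109, and the other arrays lay between -0.055 and -0.0089. KO replicate 2 was above KO replicate 3 in 1 of the 15 enzymes and in 50.3% of all probe sets, and WT replicate 1 was above WT replicate 2 in 13 of the 15 and in 48.3% of all probe sets. Enzymes on 1 array share its RNA and are not independent of each other.

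The counts between genotypes depended on which arrays entered the fit. KO replicate 3 and WT replicate 1 were singled out here after these values were seen, so the values without them restate the array levels above and are no separate test. Without KO replicate 3, Cyp51 gave -0.33, Sqle -0.30 and Fdft1 -0.22, and these 3 members were lower at an unadjusted p under 0.05, where 3.63% of all probe sets were, with 0 called (limma adjusted p = 0.426 for Cyp51). Higher at that level were 3 members, Abca1, Fads2 and Scd1, against 3.77% of all probe sets. Arrays of 5 members were lower without overlap, those of the 3 sterol enzymes, Ebp and Fdps, and arrays of 5 members were higher, those of Abca1, Acly, Fads1, Fads2 and Scd1. With 2 KO arrays against 3 WT arrays, 12.8% of all probe sets were lower without overlap and 9.64% higher. Without WT replicate 1, Hmgcs1 gave 0.27 and Hsd17b7 0.27. Then 5 members were higher at an unadjusted p under 0.05, these and Abca1, Fads2 and Scd1, and 0 were lower, while 7.42% of all probe sets were higher and 8.68% lower. In that setting 7 members were higher without overlap and 0 lower, against 14.5% and 22.0% of all probe sets. Nsdhl and Ebp lie on the X chromosome. Without WT replicate 2, the array with low Xist, they gave 0.025 and -0.13.

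**Figure D2:**
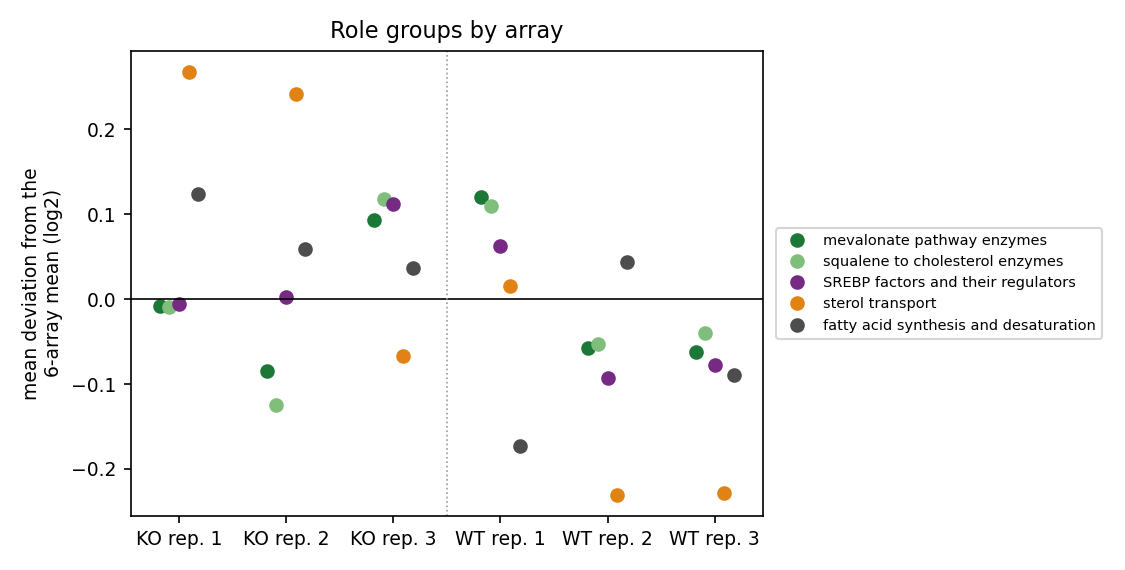
Mean deviation of each role group from its genes' 6-array means (y axis, log2) on each array (x axis), with a dot for each of the 5 groups. Both groups of sterol enzymes and the SREBP group lay highest in KO replicate 3 and WT replicate 1, at 0.062 to 0.12, and sterol transport was at 0.27 and 0.24 in KO replicates 1 and 2.

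The factors that drive the pathway gave small differences. Srebf2 measured 10.94, 11.12 and 11.30 in KO and 11.04, 10.94 and 11.01 in WT, with a difference of 0.12 (SE 0.10, limma adjusted p = 0.798). Srebf1 measured 9.68, 9.50 and 9.60 in KO and 9.64, 9.49 and 9.50 in WT, a difference of 0.051. The genotypes overlapped in both, and the array annotation does not separate the isoforms of Srebf1. Scap, the escort of both factors, gave 0.052, and Insig2, which retains them, -0.022. Insig1, a retention factor that is itself induced by SREBP, measured 9.32, 9.35 and 9.68 in KO and 9.38, 9.19 and 9.31 in WT. Its highest value was again in KO replicate 3, and the difference was 0.16 (SE 0.11, limma adjusted p = 0.745).

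**Figure D3:**
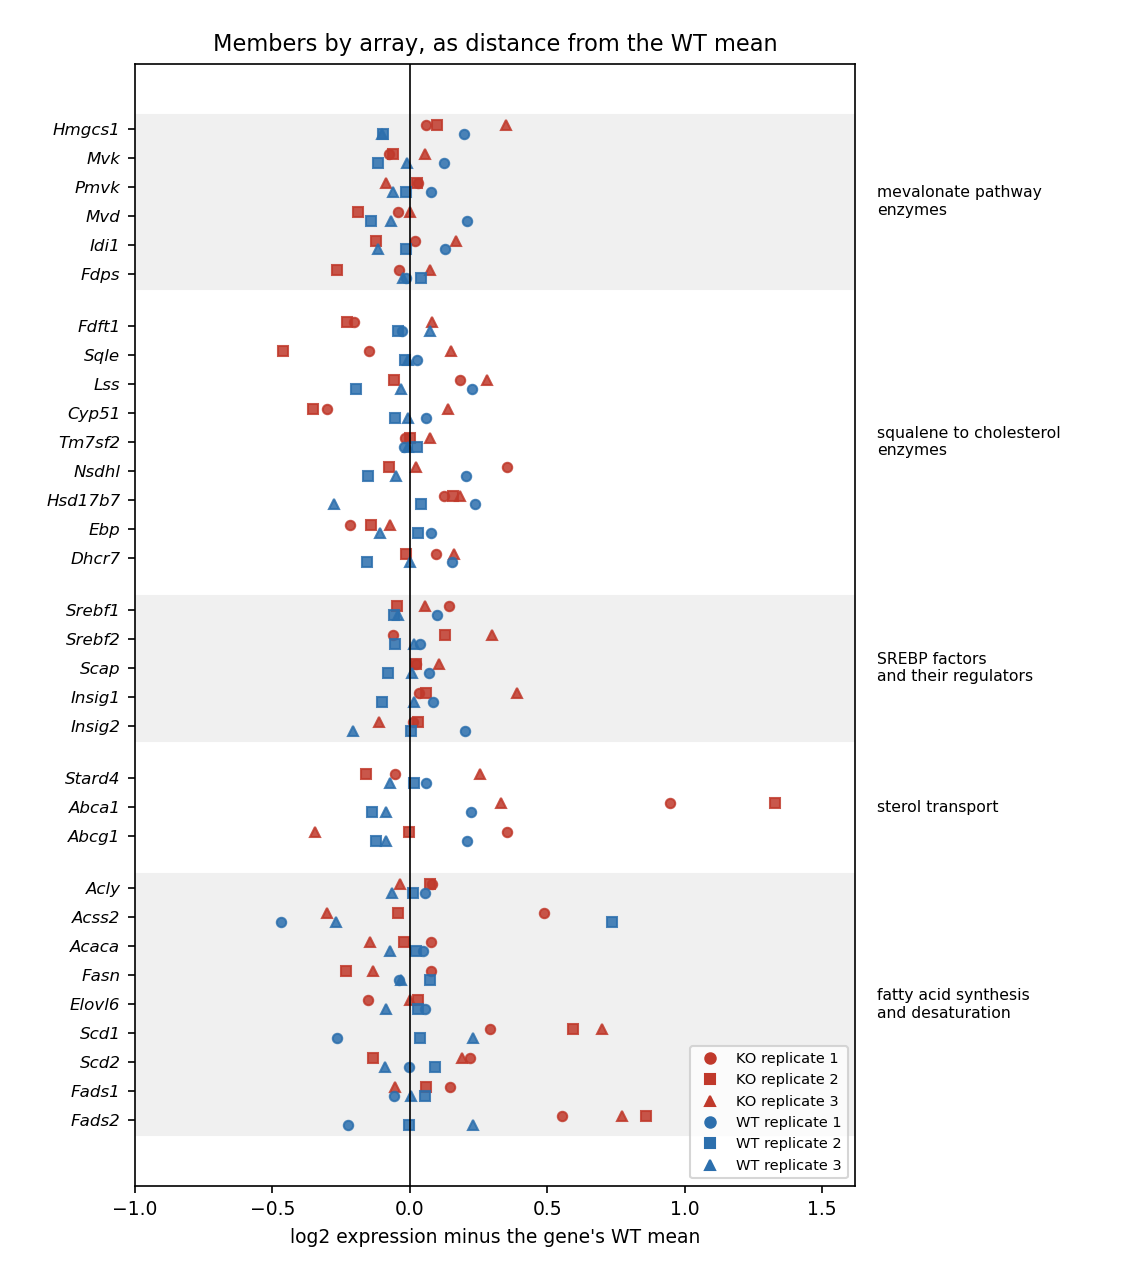
Each member's log2 expression (x axis, as distance from its own WT mean) on every array, with KO arrays in red and WT arrays in blue and a symbol for each replicate number. Most sterol enzymes stay close to the line at 0 on all arrays, while the KO arrays of Abca1, Scd1 and Fads2 lie to the right of their WT arrays.

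Sterol export held the largest difference of all members. Abca1 (probe set 10512949), the transporter that loads cholesterol onto apolipoproteins, measured 8.53, 8.91 and 7.91 in KO and 7.80, 7.44 and 7.49 in WT. All KO arrays were above all WT arrays, but KO replicate 3 exceeded the highest WT array by little, and the KO arrays spread widely. The means were 8.45 ± 0.50 (SD, n = 3) in KO and 7.58 ± 0.19 (SD, n = 3) in WT. KO exceeded WT by 0.87 log2 units (SE 0.23), or 1.83-fold, with a 95% interval of 0.35 to 1.39 (limma unadjusted p = 0.0045, adjusted p = 0.278). It was 0.64 without KO replicate 2 and 1.14 without KO replicate 3. Abcg1, the partner exporter that hands sterol to larger lipoproteins, measured 10.94, 10.58 and 10.24 in KO and 10.80, 10.46 and 10.50 in WT. Its KO arrays lay on both sides of the WT arrays and its difference was 0.0020 (95% interval -0.39 to 0.39). Stard4, which carries cholesterol between membranes inside the cell and is a known SREBP target, gave 0.013 and was highest in KO replicate 3 (8.96).

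Among the fatty acid genes the enzymes that build the chain showed little difference, and the 2 members whose arrays did not overlap were desaturases. Acly, which supplies acetyl-CoA from citrate, gave 0.039, Acaca, the carboxylase that makes malonyl-CoA, -0.030, Fasn, the fatty acid synthase, -0.096, and Elovl6, which lengthens palmitate, -0.042. Their arrays overlapped between the genotypes. A dimmer probe set of Acaca gave -0.12.

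Scd1 and Fads2 put double bonds into fatty acids, Scd1 the first one into saturated chains and Fads2 further ones into polyunsaturated chains. Fads2 (probe set 10465895) measured 10.13, 10.43 and 10.35 in KO and 9.35, 9.57 and 9.80 in WT, with means of 10.30 ± 0.16 and 9.57 ± 0.23 (SD, n = 3 each). The lowest KO array (10.13) was above the highest WT array (9.80), by less than the spread of the WT arrays from 9.35 to 9.80. KO exceeded WT by 0.73 log2 units (SE 0.13), or 1.66-fold, with a 95% interval of 0.43 to 1.03, the lowest p among the members (limma unadjusted p = 0.00044, adjusted p = 0.110). With arrays weighted by their quality it passed (limma adjusted p = 0.038, difference 0.70). Over the other alternatives its adjusted p lay above the threshold, up to 0.387 without KO replicate 2. Scd1 (probe set 10467979) measured 11.77, 12.07 and 12.18 in KO and 11.22, 11.52 and 11.71 in WT. The lowest KO array was only just above the highest WT array. KO exceeded WT by 0.53 log2 units (SE 0.15), or 1.44-fold, with a 95% interval of 0.19 to 0.87 (limma unadjusted p = 0.0067, adjusted p = 0.312).

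Their relatives gave smaller differences. Fads1, the delta-5 desaturase beside Fads2 in the polyunsaturated pathway, measured 10.74, 10.65 and 10.54 in KO and 10.54, 10.65 and 10.60 in WT, a difference of 0.050 (95% interval -0.14 to 0.24). Scd2, the stearoyl-CoA desaturase prominent in lymphoid and brain tissue, measured 11.69, 11.34 and 11.66 in KO and 11.47, 11.56 and 11.38 in WT, a difference of 0.092 (95% interval -0.16 to 0.34). Both overlapped between genotypes. Acss2, which makes acetyl-CoA from acetate, was the most variable member, at 7.66, 7.13 and 6.87 in KO and 6.70, 7.91 and 6.90 in WT. Its difference of 0.047 therefore had the widest interval, -0.67 to 0.76, and turned to -0.33 with array weights.

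**Figure D4:**
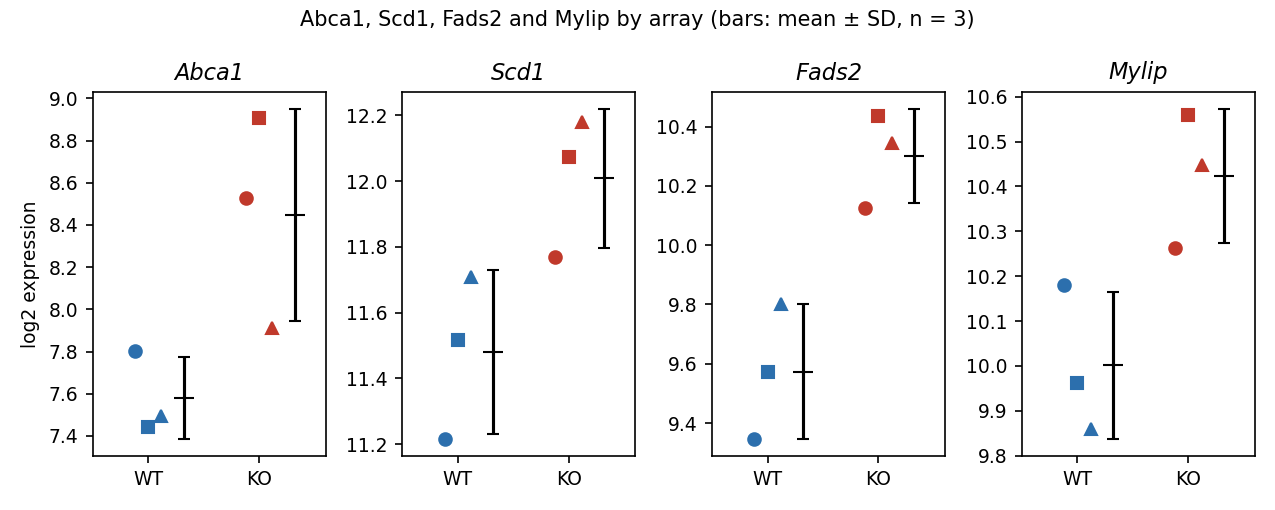
Log2 expression (y axis, a separate range for each gene) of Abca1, Scd1, Fads2 and Mylip on the WT (blue) and KO (red) arrays, with the mean and SD of 3 arrays as black bars. In each gene the KO arrays all lie above the WT arrays, with the smallest gaps in Scd1, Mylip and Abca1.

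Related genes were also compared within each array, which removes any shift common to an array. These 5 pairs were chosen after the values were seen. Abca1 minus Abcg1 was -2.41, -1.68 and -2.33 in KO and -2.99, -3.02 and -3.01 in WT, 0.87 higher in KO on average. Fads2 minus Fads1 was -0.62, -0.22 and -0.20 in KO and -1.19, -1.08 and -0.80 in WT, 0.68 higher in KO on average. In both pairs the genotypes did not overlap, and each gave p = 0.10 in a two-sided exact permutation test, the smallest that 3 arrays against 3 can give (adjusted p = 0.25 over the 5 pairs). For Scd1 minus Scd2 the genotypes differed by 0.44 and the arrays overlapped (exact permutation p = 0.20). Insig1 minus Insig2 gave 0.18 (exact permutation p = 0.50) and Srebf2 minus Srebf1 0.071 (exact permutation p = 0.70). The level of such a difference depends on the probes and only its difference between genotypes can be read.

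**Figure D5:**
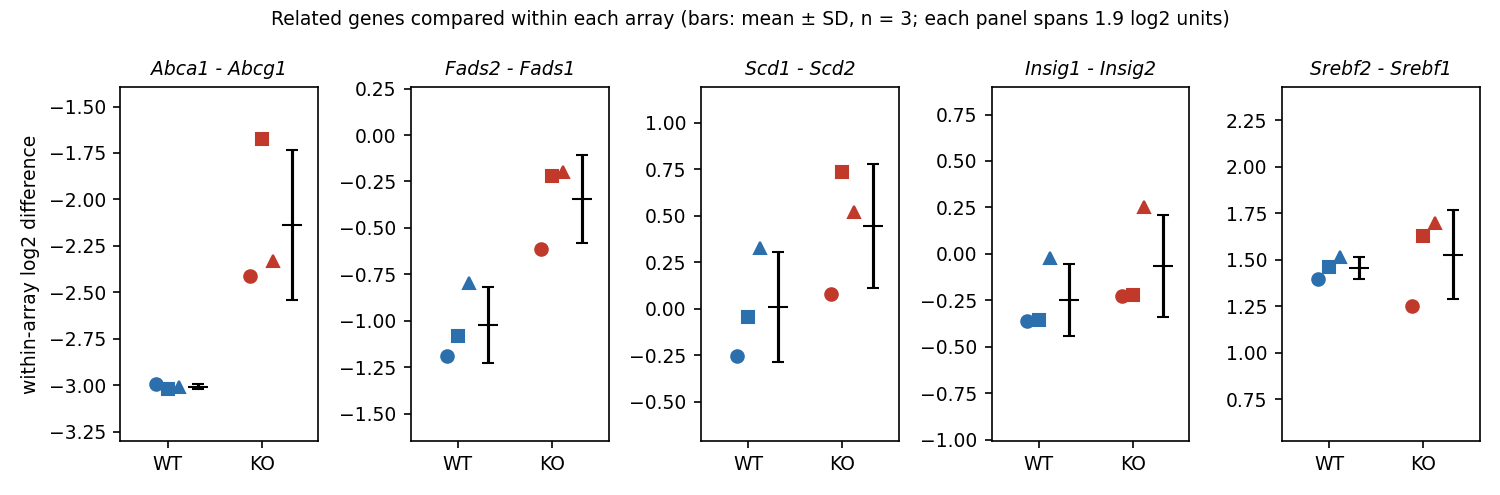
Within-array log2 difference between related genes (y axis, each panel spanning the same number of log2 units) on WT (blue) and KO (red) arrays, with the mean and SD of 3 arrays as black bars. The genotypes are separate for Abca1 minus Abcg1, at -2.41 to -1.68 against -3.02 to -2.99, and for Fads2 minus Fads1, and they overlap in the other pairs.

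Beyond the members, 36 further genes of sterol and lipid metabolism were followed, 18 with a higher and 18 with a lower KO mean and a median of -0.0010. In limma 0 were called, and at an unadjusted p under 0.05 1 was higher and 3 were lower. Mylip, the ubiquitin ligase that degrades lipoprotein receptors and, like Abca1, a known target of the liver X receptors, was the higher one. It measured 10.26, 10.56 and 10.45 in KO and 10.18, 9.96 and 9.86 in WT, without overlap, a difference of 0.42 (SE 0.11, limma adjusted p = 0.285). Abcg1, a member that these receptors also raise, gave 0.0020. Of the 11 further genes of sterol uptake, storage, release and these receptors, 6 had a higher and 5 a lower KO mean. Among the 5 were 4 tied to these receptors, picked without a set rule, which did not pass (smallest limma adjusted p = 0.840). They are no full tally of the receptors' targets, and the activity of the receptors was not tested. Lpcat3, a phospholipid acyltransferase, gave -0.051, Apoe, an apolipoprotein, -0.068, Pltp, a phospholipid transfer protein, -0.12, and Nr1h3, the receptor LXR-alpha, -0.081 at a level below the array median. Lipa, the lysosomal lipase that frees cholesterol from its esters, was among the genes lower at an unadjusted p under 0.05 in limma. It measured 10.74, 10.38 and 10.38 in KO and 10.99, 10.71 and 10.82 in WT, a difference of -0.35 (SE 0.12, limma adjusted p = 0.426). Npc1, which exports that cholesterol from the lysosome, gave 0.22.

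Most myeloid markers given above were thus higher in KO, as were Abca1, Fads2, Scd1 and Mylip. The part of myeloid cells in these differences was not tested. Itgam and the macrophage markers Csf1r and Cd14 were below the array median on every array, and Csf1r and Cd14 were the only 2 of the 14 with a lower KO mean (6.53 and 5.90 against 6.65 and 6.06 in WT). Itgam had means of 7.43 in KO and 7.25 in WT, a difference of 0.18 without overlap (limma adjusted p = 0.600). WT replicate 2 had the highest myeloid list mean of the WT arrays (8.19). Without it Abca1 gave 0.80, Fads2 0.73, Scd1 0.55 and Mylip 0.40. This array was picked after the values were seen, and leaving it out is no test of the part of myeloid cells. The fat cell genes Adipoq, Plin1 and Fabp4 were likewise below the array median on all arrays, with differences of 0.080, -0.032 and -0.097.

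The 4 other sterol synthesis enzymes measured, Ggps1, Msmo1, Lbr and Sc5d, gave differences of 0.043 to 0.074. Msmo1, the sterol methyl oxidase, was highest among the KO arrays in replicate 3 (9.49) and lowest in replicate 1 (9.03). Lbr, a sterol reductase of the nuclear envelope, was lowest in KO replicate 3, with 12.80, 12.75 and 12.52 in KO. Among 21 other fatty acid and glycerolipid genes, Elovl5, the elongase that works on the products of Fads2, was lower in KO without overlap, at 11.49, 11.45 and 11.46 against 11.70, 11.58 and 11.70. Its difference was -0.19 (SE 0.074, limma adjusted p = 0.467). Acsl5, an acyl-CoA synthetase, gave -0.23 (limma adjusted p = 0.494), also without overlap. Dgat1, which completes triglycerides, and Acsl4, a synthetase that favours arachidonate, were higher without overlap, by 0.18 each, and had unadjusted p of 0.077 and 0.067 in limma. Scd3 and Scd4, the other stearoyl-CoA desaturase genes, were below the array median on every array.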

How the data were processed

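RNA of 3 KO and 3 WT samples was hybridised to 1-colour Affymetrix arrays from 100 ng of total RNA, as the protocols state. The authors deposited log2 summaries of probe sets, for which the submitters' processing notes name RMA and Affymetrix Expression Console 1.1. The options and the annotation used are not given in the sources used here. RMA compresses differences of dim transcripts.

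Rows with exactly 1 gene symbol, 21789 of 35556, were fitted together in limma 3.58.1 (R 4.3.3; lmFit, eBayes, no covariate) as KO minus WT, with Benjamini-Hochberg adjustment over all of them and a threshold of 0.05. SE and 95% intervals are moderated. Each gene was read by its brightest probe set. Members, lists and motifs were chosen with earlier results of these data known. The genes named are the members, the further pathway genes, cell type markers, Jup, Xist and Kdm5d. Values per array are given for members at an unadjusted p under 0.05 or without overlap. They are also given for Srebf1, Srebf2, Insig1, Scd1 and Scd2, and where a sentence needs them. Tested on simulated data, with 200 changed of 21789 probe sets, the fit recovered 97.0% of changes of log2 size 0.5, with 11 false calls. That simulation gave all probe sets the same spread, unlike the data. Its percentage therefore shows that the fit runs correctly and does not give the share of real changes found here. Listed genes without a value in these rows were not analysed here. The number of arrays limits the precision.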

Additional observations from a re-analysis of the deposited data

How the results depend on the processing

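The 16 alternatives were leaving out dim probe sets, fitting every row of the table, fitting 1 probe set per gene, another prior (trended, robust), array weights, quantile normalization on top of RMA, median centring, the replicate block, each of the 6 arrays left out, averaging the probe sets of a gene, and an adjusted p of 0.1, at which 0 members were called. Abca1, Fads2 and Scd1 were higher at an unadjusted p under 0.05 in every alternative that gives this measure. They also stayed higher without overlap. That was fixed in advance where their values stayed the same or 1 array was dropped. Only quantile normalization and median centring could have changed it. Array weights called 1 member higher, Fads2, and gave 4 higher at an unadjusted p under 0.05, Hmgcs1 being the added one. Quantile normalization added 1 member lower without overlap, Ebp, and 1 higher, Scap, for 4 higher. For array weights and quantile normalization the shares over all probe sets were not counted. The member counts in these settings thus cannot be read as particular to the members. Leaving out 1 array in turn gave 3 to 5 members higher and 0 to 3 lower at an unadjusted p under 0.05. Of all probe sets, 2.63% to 7.42% were then higher and 2.51% to 8.68% lower at that level. Without overlap 3 to 7 members were higher and 0 to 5 lower, where all probe sets gave 7.89% to 14.5% higher and 11.1% to 22.0% lower. The number with a higher KO mean was then 16 to 23, and the median -0.0083 (without WT replicate 3) to 0.072.

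The sign turned in at least 1 alternative for 14 members, each with a difference of 0.15 or less in size, and stayed for 18. With array weights the values were 0.041 for Mvk, 0.0039 for Pmvk, 0.0068 for Mvd, 0.0093 for Insig2 and -0.33 for Acss2, and with quantile normalization 0.0091 for Pmvk. With 1 array left out the ranges were -0.086 to 0.036 for Mvk, -0.042 to 0.028 for Pmvk, -0.15 to 0.028 for Mvd, -0.052 to 0.093 for Idi1, -0.15 to 0.017 for Fdps, -0.30 to 0.00099 for Sqle, -0.0087 to 0.038 for Tm7sf2 and -0.027 to 0.20 for Nsdhl. They were -0.13 to 0.079 for Insig2, -0.11 to 0.10 for Stard4, -0.17 to 0.18 for Abcg1, -0.19 to 0.42 for Acss2, -0.083 to 0.027 for Acaca and -0.085 to 0.014 for Elovl6. The cause was not tested.

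The labels number the replicates alike in both groups without saying what a number marks. The sample descriptions also hold a digit that same-numbered KO and WT samples share, unexplained. Deviations from the group means correlated at 0.10, -0.0043 and 0.27 for the same numbers, and KO replicate 2 correlated best with WT replicate 1 (0.13). With the replicate block 0 members were called, and 3 were higher and 0 lower at an unadjusted p under 0.05, with limma adjusted p of 0.066 for Fads2, 0.089 for Scd1 and 0.214 for Abca1.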
